A study of Mus musculus with 6 samples.

Results

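The interferon regulatory factors (IRFs) are a family of transcription factors that bind DNA through a conserved amino-terminal domain. They are described here by 8 genes, Irf1 to Irf5 and Irf7 to Irf9, of the 19937 genes with a single symbol on the array. All 9 probe sets annotated to these genes were taken, 2 for Irf1 and 1 for each of the others. RNA came from inguinal white adipose tissue, fat lying under the skin, of 3 male mice lacking the transcription factor Atf7 (KO) and 3 wild-type (WT) male littermates, all C57BL/6 and 5 weeks old, with 1 Affymetrix array per mouse. The mice of both groups were born to Atf7 heterozygous parents. How the allele was made, and in which cells it acts, is not stated in the labels. Values are log2 expression as deposited, in which a step of 1 is a doubling, and the number of arrays limits their precision.

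Family members play different roles. Irf3 and Irf7 switch on type I interferon genes after sensors of foreign nucleic acid have been triggered, Irf5 drives inflammatory cytokine genes downstream of Toll-like receptors, Irf9 gives DNA contact to the complex that answers type I interferon, and Irf1 carries the response to interferon-gamma while Irf2 can oppose it on shared sites. Irf4 and Irf8 are the lymphoid and myeloid members, needed for B cells, plasma cells and dendritic cells, and they bind weakly alone and more firmly with partners such as Spi1 and Batf. In mouse fat cells Irf4 is also known to favour lipolysis and, with Ppargc1a, thermogenic genes. ATF7 itself is known in mouse macrophages as a repressor of innate immune genes.

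The arrays differed in ways that touch these genes. In the fit over all probe sets, one Atf7 probe set averaged 6.41 ± 0.17 in KO and 9.07 ± 0.12 in WT (SD, n = 3 each; limma adjusted p 0.00658, where 2 of 34760 probe sets, 0.00575%, passed and were lower), and the other 9.25 ± 0.16 in KO and 9.42 ± 0.09 in WT (adjusted p 0.730). A lymphocyte score, the mean of 35 measured B cell and T cell markers each taken relative to its own 6-array mean, was -0.12, 0.62 and -2.45 in KO replicates 1 to 3 and lay between 0.52 and 0.77 in the WT arrays. KO replicate 3 therefore stood apart, and its correlation with the other arrays, across probe sets, was 0.969 to 0.981 against 0.984 to 0.990 among the rest. Lymph node stromal markers moved with the score, at -0.12, 0.54 and -2.42 in KO and 0.45 to 0.83 in WT. The adipocyte marker score ran from -0.18 to 0.16 over the 6 arrays. In bulk tissue, fewer cells of a type and less RNA per cell cannot be told apart.

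**Figure D1:**
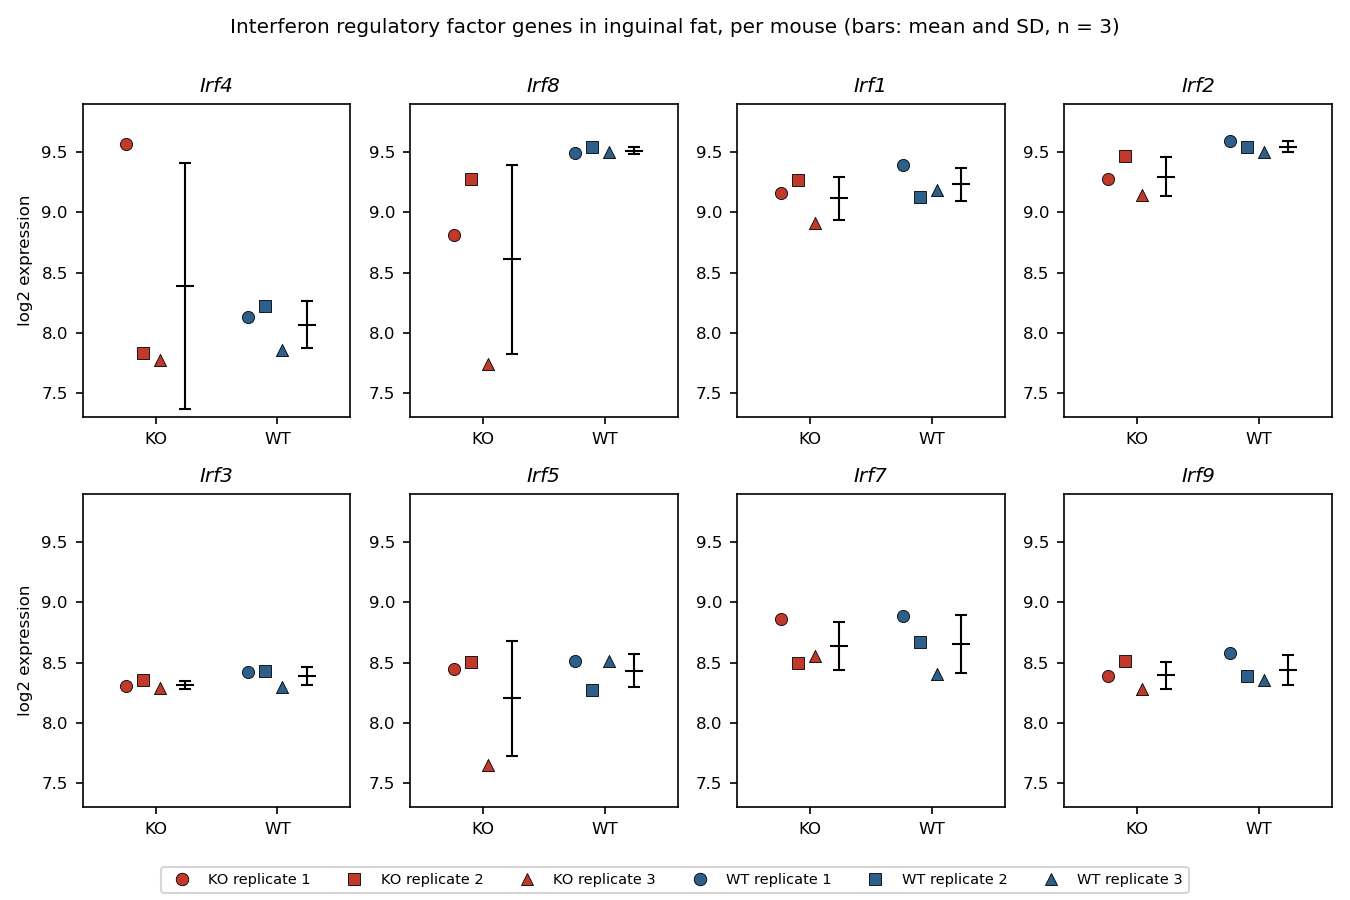
Log2 expression of each interferon regulatory factor gene (y axis) in KO and WT inguinal fat (x axis), 1 point per mouse, with black bars for mean and SD (n = 3 per group). Irf8 in KO lies below all WT arrays, from 7.74 to 9.28 against 9.49 to 9.54, and Irf4 holds a single high KO array at 9.57. Levels of different genes are not comparable with each other.

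None of the 8 genes passed limma's test at an adjusted p under 0.05, where 0 of 19937 genes (0%) passed in either direction. Among those genes Atf7 was represented by its brighter probe set, the one that differed little (9.25 in KO and 9.42 in WT). At an unadjusted p under 0.05, 2 of the 8 genes, Irf8 and Irf2, were lower in KO and 0 were higher, beside 2.48% of all genes lower, 4.99% higher and 7.47% in either direction. The same 2 genes had every KO array below every WT array, as did 5.97% of all genes, and 0 of the 8 had every KO array above, as did 7.96%. The difference was negative for 7 of the 8 genes, all but Irf4, and for 47% of all genes. The median difference over the 8 genes was -0.09, beside 0.01 over all genes. It was -0.0039 without KO replicate 3, where 4 of the 8 genes were negative, and 0.01 when the lymphocyte score was fitted too, so the mostly negative sign rested on that array. KO replicate 3 was the lowest array for 7 of the 8 genes, all but Irf7, while it was the lowest for 20.7% of all genes.

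Irf8, which shapes B cells, plasmacytoid dendritic cells and macrophages, showed the widest gap between group means. Its level read 8.81, 9.28 and 7.74 in KO mice, against 9.49, 9.54 and 9.50 in WT mice. The WT mice were nearly alike (9.51 ± 0.03, SD, n = 3), whereas the KO mice spread widely (8.61 ± 0.79), and the groups did not overlap. The log2 difference was -0.90 (SE 0.35, 95% interval -1.72 to -0.08), or 1.87-fold less in KO (limma, adjusted p 0.622). The order of the KO arrays was that of their lymphocyte scores. With the score as a covariate the difference was -0.27 (95% interval -0.52 to -0.01) at an unadjusted p of 0.0445, where 1.62% of all genes were lower at p under 0.05. Without KO replicate 3 it was -0.47 (95% interval -0.81 to -0.12) at an unadjusted p of 0.0158, where 1.9% of all genes were lower. The adjusted p was 0.9999 in the covariate fit and 0.931 without KO replicate 3. KO replicate 2, whose lymphocyte score of 0.62 lay inside the WT range, had Irf8 at 9.28, 0.22 below the lowest WT array. Among the markers of that score, 9 of 20 T cell and 2 of 15 B cell markers also had every KO array below every WT array. The share over all genes was 5.97%. The part of lymphocytes in the Irf8 gap was not tested.

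Irf4, the other lymphoid member and a factor of plasma cells, activated lymphocytes and fat cells, ran differently. Its level read 9.57, 7.83 and 7.77 in KO mice, against 8.13, 8.22 and 7.86 in WT mice. KO replicate 1 stood far above every other array, and the other two KO arrays lay below all 3 WT arrays. KO averaged 8.39 ± 1.02 and WT 8.07 ± 0.19 (SD, n = 3 each), and KO minus WT was 0.32 (SE 0.46, 95% interval -0.75 to 1.40, adjusted p 0.835). Without KO replicate 1 the difference was -0.27 (95% interval -0.61 to 0.08, adjusted p 0.852), and without KO replicate 3 it was 0.63, so its sign rested on 1 array. KO replicate 1 exceeded the next array by 1.35 for Irf4, and of 19937 genes 1, Irf4 itself, had a gap that large between that array and the highest other one. That count was chosen after the values were seen. Irf4 had a single probe set, so no second reading on the array bears on it.

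Marker lists were set beside the high Irf4 value of KO replicate 1. Plasma cell markers were at -0.04 there (-0.18 to 0.15 over the 6 arrays) and B cell markers at 0.09, below KO replicate 2 (0.73) and all WT arrays (0.56 to 0.87). Macrophage markers were highest in KO replicate 1 at 0.30, followed by 0.22 in WT replicate 3. NK cell markers were also highest in KO replicate 1, at 0.22, followed by 0.10 in WT replicate 1. So were endothelial markers, at 0.19, followed by 0.13 in KO replicate 3. Skeletal muscle markers were 1.64 in KO replicate 1 and 2.61 in WT replicate 2. The part of these cell types in the Irf4 values was not tested. The measured genes next to Irf4 on chromosome 13 showed no such gap, with Dusp22, a dual-specificity phosphatase gene, at 9.61, 9.27 and 9.86 in KO and 9.26 to 9.43 in WT. Exoc2, an exocyst subunit gene on the other side, was 8.91, 9.02 and 8.82 in KO and 8.91 to 9.08 in WT.

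**Figure D2:**
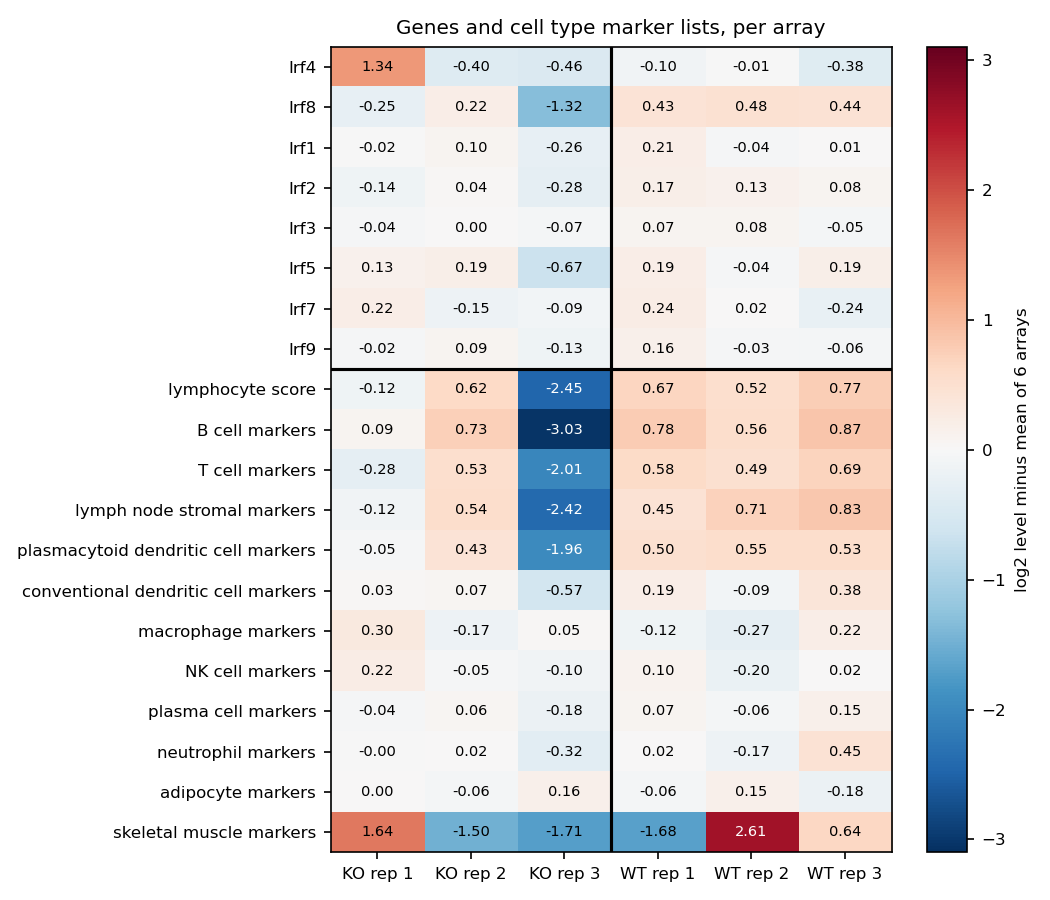
Log2 level minus the mean of the 6 arrays (colour and printed value) for the interferon regulatory factor genes (upper rows) and marker lists (lower rows), with KO arrays left of WT arrays. KO replicate 3 is low in lymphocyte, lymph node stromal and plasmacytoid dendritic cell markers and in Irf8 (-1.32) and Irf5 (-0.67), and KO replicate 1 is high in Irf4 (1.34).

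Irf2, which binds the same sites as Irf1 and can act as a repressor, was the other gene whose groups did not overlap. It was 9.28, 9.47 and 9.14 in KO and 9.59, 9.55 and 9.50 in WT. The gap was narrow, since KO replicate 2 and WT replicate 3 differed by 0.04. The difference was -0.25 (SE 0.11, 95% interval -0.50 to -0.00, adjusted p 0.622, unadjusted p 0.0494). Fitting the lymphocyte score too gave -0.13 (95% interval -0.38 to 0.11), and the value was -0.18 (95% interval -0.43 to 0.08) without KO replicate 3.

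The promoters of Irf8 and Irf2, the genes with separate groups, and of Irf4, the gene with a single high array, are shown because the deleted factor is a DNA-binding protein. Each is the 250 bases upstream of an annotated start site, 5′ to 3′ on the gene's strand, from RefSeq on GRCm38.p6, with capitals for a gamma-activated site (GAS, TTCNNNGAA), an interferon-stimulated response element (ISRE, GAAA, any 2 bases, GAAA) or an ETS-IRF composite element (GGAA, any 2 bases, GAAA).
Irf8, chr8:120736108-120736357, plus strand: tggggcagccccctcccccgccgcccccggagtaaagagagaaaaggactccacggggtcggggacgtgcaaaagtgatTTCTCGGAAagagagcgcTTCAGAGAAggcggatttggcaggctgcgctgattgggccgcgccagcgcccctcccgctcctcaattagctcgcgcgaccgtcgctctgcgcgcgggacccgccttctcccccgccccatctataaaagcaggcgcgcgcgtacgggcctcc
Irf2, chr8:46739495-46739744, plus strand: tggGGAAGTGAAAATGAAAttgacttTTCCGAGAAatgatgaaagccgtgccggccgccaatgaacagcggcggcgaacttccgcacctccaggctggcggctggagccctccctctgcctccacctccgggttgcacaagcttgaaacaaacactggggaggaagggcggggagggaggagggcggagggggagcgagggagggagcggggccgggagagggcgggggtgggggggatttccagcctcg
Irf4, chr13:30748983-30749232, plus strand: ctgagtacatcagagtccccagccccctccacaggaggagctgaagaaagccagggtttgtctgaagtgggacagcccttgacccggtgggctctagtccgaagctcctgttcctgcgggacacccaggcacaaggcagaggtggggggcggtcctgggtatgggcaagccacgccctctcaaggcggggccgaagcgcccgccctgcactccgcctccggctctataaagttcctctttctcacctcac

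All 8 genes had a promoter entry, with 11 start sites in all, and both strands were searched. The cAMP response element TGACGTCA, the palindrome that ATF7 and its relatives bind, was in 0 of these 11 windows and in 1.55% of the 32851 windows of all genes. The AP-1 site TGANTCA was likewise in 0 of 11, against 6.75% of all windows. The GAS letters were in 3 of 11 windows, those of Irf1, Irf2 and Irf8, against 7.02% of all windows. Irf8 holds a pair of them, starting at -171 and -153 from the start site shown, and Irf1 one at -90. Irf8 and Irf1 each have another annotated start site, whose window held none of the motifs searched. The ISRE and the composite element were each in 1 of 11 windows, both in Irf2. The ISRE runs from -241 to -232 and the composite element from -247 to -238, so they overlap in part. They were in 2.98% and 2.3% of all windows. A match is a description of letters and not a bound site, and binding was not measured here.

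Irf5, an inducer of inflammatory cytokines in macrophages and B cells, was low on 1 array. It was 8.45, 8.51 and 7.65 in KO and 8.51, 8.28 and 8.51 in WT. KO replicates 1 and 2 lay within the WT range, and KO replicate 3 was 0.62 below every other array. The difference was -0.23 (SE 0.23, 95% interval -0.77 to 0.31, adjusted p 0.765). It was 0.05 without KO replicate 3 and 0.16 when the lymphocyte score was fitted too, so its sign turned in both.

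Irf1, the carrier of the interferon-gamma response, was 9.16, 9.27 and 8.92 in KO and 9.39, 9.13 and 9.19 in WT. Its groups overlapped, with KO replicate 3 lowest, and the difference was -0.12 (95% interval -0.41 to 0.18, adjusted p 0.778). It was -0.02 without KO replicate 3 and 0.03 when the lymphocyte score was fitted too. The second Irf1 probe set was 6.72, 6.75 and 6.63 in KO and 6.71, 6.68 and 6.81 in WT, also with overlapping groups (difference -0.04, adjusted p 0.935 over all probe sets).

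The genes that respond to foreign nucleic acid and to type I interferon differed little between groups. Irf3, held ready in most cells before infection, was 8.31, 8.36 and 8.29 in KO and 8.43, 8.43 and 8.30 in WT, with the smallest spread within groups of the 8 genes in KO. Its difference was -0.07 (95% interval -0.27 to 0.13, adjusted p 0.813). Irf7, the amplifier of type I interferon and itself an interferon-induced gene, was 8.86, 8.50 and 8.55 in KO and 8.89, 8.67 and 8.41 in WT. The groups covered nearly the same range, with a difference of -0.02 (95% interval -0.38 to 0.35, adjusted p 0.980). Irf9, the DNA-binding subunit of the type I interferon complex, was 8.39, 8.51 and 8.28 in KO and 8.58, 8.39 and 8.36 in WT. Its groups overlapped as well, with a difference of -0.04 (95% interval -0.29 to 0.20, adjusted p 0.911). For Irf3 and Irf9 the 95% intervals lie between -0.29 and 0.20 on the log2 scale, and that of Irf7 is wider.

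**Figure D3:**
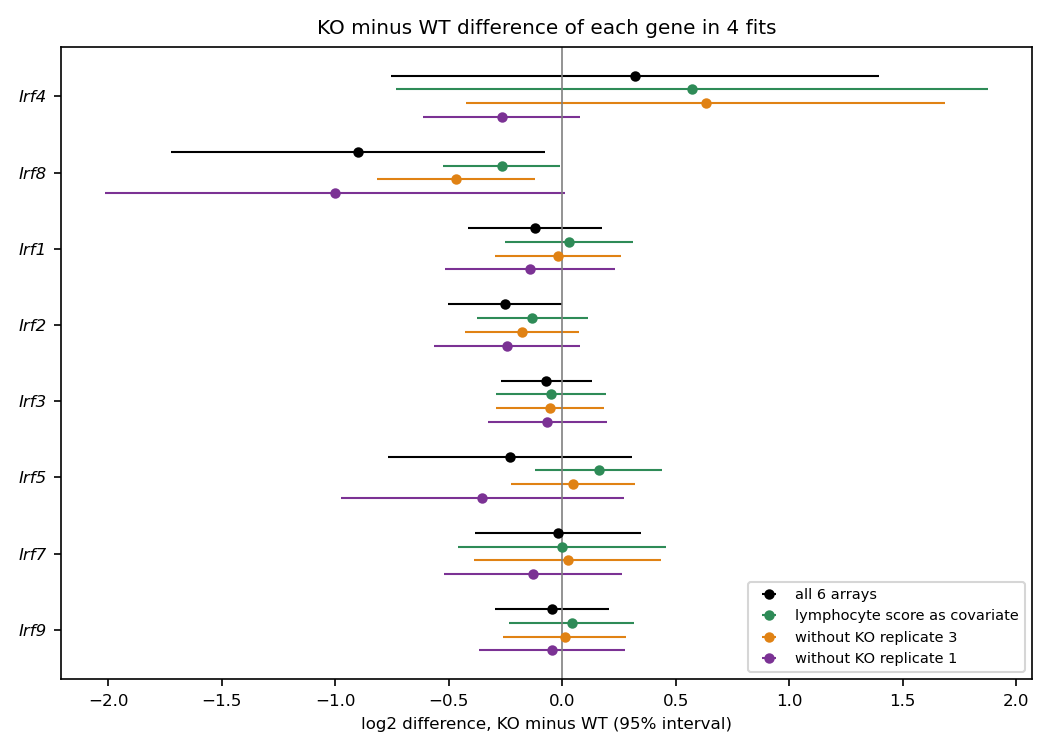
Log2 difference, KO minus WT (x axis), of each interferon regulatory factor gene with limma's 95% interval, from all 6 arrays, with the lymphocyte score fitted too, and without KO replicate 3 or 1. Irf8 is negative in all 4 fits, nearest 0 at -0.27 with the score, and Irf4 lies at 0.32, 0.57, 0.63 and -0.27 in that order of fits.

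Lymphoid content was related to each gene over the 6 arrays, giving 8 relations. Pearson's r with the lymphocyte score was 0.98 for Irf8 (exact permutation p 0.0361, adjusted p 0.144; Spearman's rho 0.66, exact permutation p 0.175). For Irf4, the other lymphoid factor, r was 0.08 (exact permutation p 0.825, adjusted p 0.943; rho 0.03, p 1.0). Among the other genes r was 0.95 for Irf5 (exact permutation p 0.075, rho 0.89 with p 0.0333). For Irf2 r was 0.90 (exact permutation p 0.0361, rho 0.71 with p 0.136), and for Irf1 0.84 (p 0.0806, rho 0.77 with p 0.103). It was 0.64 for Irf9 (exact permutation p 0.144; rho 0.37, p 0.497), 0.55 for Irf3 (p 0.136; rho 0.26, p 0.658) and 0.08 for Irf7 (p 0.997; rho -0.26, p 0.658). The adjusted exact permutation p over the 8 relations was 0.144 or more for r and 0.267 or more for rho, so none passed. The 2 arrays farthest from the median score were KO replicates 3 and 1. Over the 4 arrays left, r was 0.01 for Irf8, 0.79 for Irf5, -0.14 for Irf2, 0.26 for Irf1 and -0.62 for Irf4. Without KO replicate 3 alone, r was 0.91 for Irf8, 0.87 for Irf2, 0.41 for Irf1, 0.21 for Irf5 and -0.98 for Irf4. The coefficient of Irf1 thus rested mainly on KO replicate 3, and those of Irf8 and Irf2 on KO replicates 3 and 1 together. That of Irf5 fell without KO replicate 3, though less far when KO replicate 1 was left out too. That of Irf4 turned sign without KO replicate 3, when KO replicate 1 had the lowest score left and the highest Irf4 level. Leaving out KO replicate 1 alone gave an r of 0.49 for Irf4. With 3 arrays in each group, no r is given within a group.

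**Figure D4:**
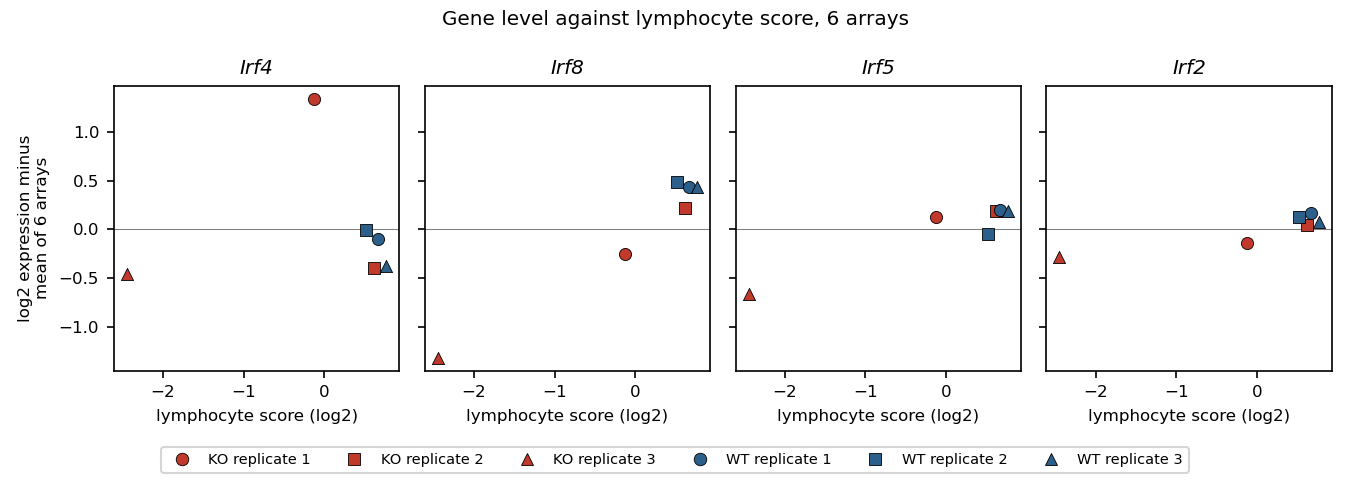
Level of Irf4, Irf8, Irf5 and Irf2 (y axis, log2 minus the mean of 6 arrays) against the lymphocyte score (x axis, log2), 1 point per array. KO replicate 3 lies alone at a score of -2.45, and Irf4 on KO replicate 1 lies off any common trend at 1.34.

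Over all 6 arrays the coefficients did not sort by Irf4 and Irf8 against the other members. They were 0.98 for Irf8 and 0.08 for Irf4, and 0.08 to 0.95 among the others. That of Irf4 depended on single arrays, as given above. No test compared one coefficient with another. Plasmacytoid dendritic cell markers, a cell type that depends on Irf8, were -0.05, 0.43 and -1.96 in KO and 0.50 to 0.55 in WT. All 4 measured markers of that list had negative differences, with Siglech, its surface lectin, at 7.63, 8.06 and 5.76 in KO and 8.19, 8.40 and 8.46 in WT (difference -1.20, adjusted p 0.622). The median of the list was -1.24, but -0.35 without KO replicate 3 and -0.15 when the lymphocyte score was fitted too. All 15 B cell and all 20 T cell markers were negative as well, beside 47% of all genes. Conventional dendritic cell markers were 0.03, 0.07 and -0.57 in KO and -0.09 to 0.38 in WT. They were mixed in sign, with 6 of 9 negative and 3 positive. Clec9a, the marker of smallest p, was 6.70, 6.83 and 6.60 in KO and 7.19, 6.87 and 7.18 in WT (difference -0.37, limma adjusted p 0.622). Macrophage markers, another Irf8 and Irf5 source, were 0.30, -0.17 and 0.05 in KO and -0.27 to 0.22 in WT, so KO replicate 3 was not low in them. With the macrophage score as a covariate the Irf8 difference was -0.85 (limma, 95% interval -1.80 to 0.10, adjusted p 0.769). The part of dendritic cells in the Irf8 difference was not tested.

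Genes whose values over the 6 arrays ran closest to a member were named by Pearson's r, as a description. For Irf8 these were the cytokine gene Clcf1, the membrane linker gene Ezr and the ribosomal protein gene Rplp0, each with r above 0.999. Ezr was 8.52, 9.04 and 7.33 in KO and 9.28, 9.34 and 9.36 in WT. For Irf4 they were Guca1a (r 0.986), Pomk (0.969) and Rnf168 (0.967), which ranged far less than Irf4, with Pomk at 7.23 in KO replicate 1 and 7.01 to 7.04 elsewhere. For Irf7 they were Card9 (0.979), an adaptor of fungal sensing, Zfp830 (0.972) and Vmn2r66 (0.971). All of these genes share the same 6 arrays.

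The pathway around these factors was described from gene lists, with counts set beside those of all genes, of which 53% were positive, 4.99% were higher and 2.48% lower at an unadjusted p under 0.05. The adjusted p was above the threshold for each listed gene. Among receptors, kinases and STATs of interferon signalling, 9 of 11 measured genes were negative, 1 was lower at an unadjusted p under 0.05 and 0 higher, and the median was -0.17 (-0.07 without KO replicate 3 and -0.04 when the lymphocyte score was fitted too). That gene was Ifnlr1, the interferon-lambda receptor chain, at 5.58, 5.53 and 5.58 in KO and 5.74, 5.74 and 5.79 in WT (difference -0.20, adjusted p 0.622). Jak1, the kinase shared by interferon receptors, was 10.80, 10.98 and 10.28 in KO and 11.06, 10.91 and 11.14 in WT. Among sensors, adaptors and kinases that activate Irf3, Irf5 and Irf7, 13 of 20 were negative, the median was -0.03 (-0.01 leaving out KO replicate 3), and 1 gene was at an unadjusted p under 0.05 in each direction. Myd88, the Toll-like receptor adaptor, was 9.36, 9.23 and 9.23 in KO and 9.46, 9.53 and 9.64 in WT (difference -0.27, SE 0.09). Mavs, the mitochondrial adaptor of RNA sensors, was 9.67, 9.59 and 9.67 in KO and 9.42, 9.52 and 9.21 in WT (difference 0.26, SE 0.11). The groups did not overlap for either adaptor, and both had an adjusted p of 0.622. Tlr9, an endosomal DNA sensor of B cells and plasmacytoid dendritic cells, was 8.38, 8.60 and 7.40 in KO and 8.67 to 8.86 in WT, with KO replicate 3 lowest.

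Targets of the factors showed small median differences. Of 24 measured type I interferon targets, 18 were negative, 0 were at an unadjusted p under 0.05 in either direction, and the median was -0.11 with a range from -0.44 to 0.21. Ifit1, which binds foreign RNA, was 8.17, 8.05 and 8.07 in KO and 8.43, 8.31 and 8.18 in WT, and Usp18, which damps the receptor, differed by -0.23 (adjusted p 0.624). Of 24 interferon-gamma and Irf1 targets, 17 were negative, and the median was -0.09 with a range from -0.67 to 0.19. At an unadjusted p under 0.05, 1 of them was lower. That gene, the peptide transporter Tap1, was 9.46, 9.72 and 9.13 in KO and 9.95, 9.74 and 9.77 in WT (difference -0.38, adjusted p 0.622). Nlrc5, the coactivator of MHC class I genes, was 9.65, 9.94 and 9.45 in KO and 9.98, 9.94 and 9.97 in WT. Without KO replicate 3 the medians of these 2 lists were -0.06 and -0.08.

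A list of DNA-binding partners of Irf4 and Irf8, with related regulators such as Id2, was negative for 15 of 16 genes. Of these genes 0 were at an unadjusted p under 0.05, and the median was -0.18 (-0.04 without KO replicate 3). The list's level was -0.06, 0.21 and -0.74 in KO and 0.09 to 0.30 in WT, so KO replicate 2 lay within the WT range. Spib, the B cell and plasmacytoid dendritic cell partner, was 9.41, 10.22 and 6.06 in KO and 10.36, 10.25 and 10.31 in WT (difference -1.75, adjusted p 0.624). Ikzf1 and Ikzf3, lymphoid zinc finger factors, differed by -1.11 and -1.57, and the median of the list was 0.01 once the lymphocyte score was fitted too. Of 10 restrainers of IRF signalling 8 were negative, the median was -0.11 (-0.02 leaving out KO replicate 3, -0.0027 when the lymphocyte score was fitted too), and 1 was lower at an unadjusted p under 0.05. It was Tnfaip3, the ubiquitin-editing enzyme that limits NF-kappa B, at 7.12, 7.58 and 6.28 in KO and 7.71, 7.71 and 7.80 in WT.

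Fat cell genes tied to Irf4 were the exception in sign. All 7 were positive, 3 with an unadjusted p below 0.05 (4.99% of all genes higher), and the median was 0.25. The list was chosen with earlier results of these data known, and it holds Ucp1, whose difference was the highest of all genes. These counts are therefore a description and no test of the list. The list's level was 0.42, 0.20 and 0.71 in KO and -0.24, -0.45 and -0.63 in WT, so the groups did not overlap. Most of that gap came from a pair of thermogenic genes. Ucp1, the uncoupling protein of heat-producing fat cells, was 9.36, 8.76 and 9.65 in KO and 7.04, 5.97 and 6.05 in WT (difference 2.91, adjusted p 0.237). Cidea, a lipid droplet protein of the same cells, differed by 1.59 (adjusted p 0.487). A relation of these genes to Irf4 was not tested. Ppargc1a, the coactivator that partners Irf4 in fat cells, was 8.13, 7.90 and 8.82 in KO and 7.60, 7.48 and 7.18 in WT (difference 0.86, adjusted p 0.622). The lipases Pnpla2 and Lipe, which release fatty acids from stored fat, differed by 0.18 and 0.15 with overlapping groups.

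**Figure D5:**
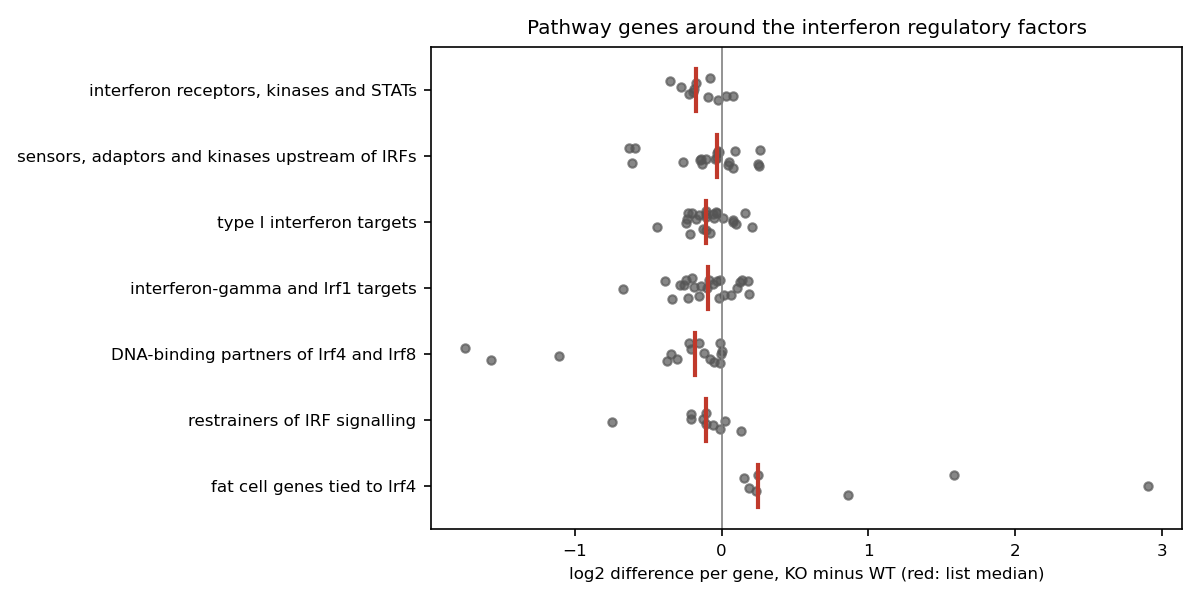
Log2 difference per gene, KO minus WT (x axis), for lists of pathway genes around the interferon regulatory factors (rows), 1 grey point per gene and a red line at the list's median. Medians lie between -0.18 and -0.03 for 6 lists and at 0.25 for the fat cell genes tied to Irf4.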

How the data were processed

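RNA was measured on 6 arrays, 3 KO and 3 WT, grouped by sample title. The deposited values are log2 expression for 34760 probe sets; RMA, affy and limma made them per the submitters' processing notes, with versions and array genome build not given in the sources used here. RMA equalizes array distributions, so a change in most genes at once would be hidden. Values ran from 1.44 to 14.15, array medians from 6.41 to 6.49.

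Of the probe sets, 21640 had 1 symbol in the platform annotation, 1321 several and 11799 none listed. A gene was represented by its brightest probe set. Of 19937 genes, 19855 matched a RefSeq table (GRCm38.p6), the 8 members included. KO was tested against WT with limma 3.58.1 in R 4.3.3 (lmFit, eBayes, two-sided), with Benjamini-Hochberg adjustment over all 19937 genes and a threshold of 0.05. The test was checked on simulated data. Exact two-sided permutation tests of correlation used scipy 1.17.1. A 3 against 3 permutation of a single value cannot go below 0.1.

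The members and gene lists were chosen with earlier results of these data known. The lists held 254 entries, 232 of them measured. Genes named were the members, Atf7, up to 4 genes of smallest p per list, defining markers, and for Irf4, Irf7 and Irf8 the 3 genes of highest r, with predicted genes skipped. The genes beside Irf4, and Pnpla2 and Lipe, were chosen after their values were seen. Alternatives were other normalizations, a filter on dim genes, other probe set rules, a variance trend, array weights, cell scores as covariates, a replicate block and leaving out each array. Same-numbered KO and WT arrays did not deviate together (r -0.14, -0.08 and -0.04), so the numbers were not taken as pairs.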

Additional observations from a re-analysis of the deposited data

How the results depend on the processing

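None of the 8 members was called in any of the 16 alternatives, with limma's adjusted p from 0.174 to 0.9999. Genes called numbered 0, but 1 with a gene's probe sets averaged and 2 over all probe sets. Members at an unadjusted p under 0.05 numbered 2, but 1 with arrays shifted to a common median, with repeated quantile normalization, over all probe sets, with an intensity trend, with the replicate block and with the lymphocyte score, 0 with the macrophage score, and 0 to 2 without each array in turn. Genes at that p numbered 995 higher and 494 lower. They were 1615 and 1329 with array weights and 454 and 322 with the lymphocyte score, while the lower ones were 291 with only brighter genes, 299 with the macrophage score and 987 over all probe sets. Without each array in turn they ran from 560 (without KO replicate 1) to 2068 (without KO replicate 2) higher and from 192 (without WT replicate 3) to 1689 (without KO replicate 2) lower; the cause was not tested.

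Signs turned for Irf7 with arrays shifted (0.0096) and with array weights (0.023), and for Irf1 (0.031), Irf5 (0.16) and Irf9 (0.043) with the lymphocyte score. Without each array in turn the log2 difference ran from -0.20 to -0.02 for Irf1, -0.34 to -0.18 for Irf2, -0.11 to -0.05 for Irf3, -0.27 to 0.63 for Irf4, -0.38 to 0.046 for Irf5, -0.14 to 0.10 for Irf7, -1.23 to -0.47 for Irf8 and -0.10 to 0.025 for Irf9. With the replicate number as a block, each member's difference stays the same by design and only its p can change. No member was called in that fit (Irf8 -0.90, limma adjusted p 0.644). Pearson's r with the lymphocyte score ran from 0.91 to 0.99 for Irf8, -0.98 to 0.49 for Irf4 and -0.57 to 0.34 for Irf7 without each array in turn, the lowest value of each coming without KO replicate 3. B cell or T cell markers alone turned no r. The arrays give no detection call, so signal over background was not assessed.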
